A study of Mus musculus with 16 samples.

Results

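The regions described here are stretches of chromatin that were accessible in the pancreatic islets of every sample, but whose signal varied most between mouse strains. They were chosen by the measured signal itself. Accessible regions (peaks) of 16 samples were merged where they overlapped, which gave 358621 regions on chromosomes 1 to 19, and 40930 of these (11.4%) held a peak in all 16 samples. In these shared regions the signal at the summit of the highest peak was taken as log2(signal + 1) and centred on the median of each sample. A region was kept when the means of the 8 strains spanned at least 2 on this log2 scale, which is 4-fold, and when both sexes of a strain were at most 0.5 apart on average. The range passed in 3758 regions, and 1219 of them failed on the difference between the sexes, which left 2539 regions, 6.20% of the shared regions.

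The samples were islets of 8 inbred strains, the founders of the diversity outbred mouse population, profiled by ATAC-seq. These were 129S1_SvImJ (129), A_J (AJ), C57BL/6J (B6), NOD_ShiLtJ (NOD) and NZO_HlLtJ (NZO), called classical below, and CAST_EiJ (CAST), PWK_PhJ (PWK) and WSB_EiJ (WSB), which the study calls wild-derived. Each strain gave 1 female and 1 male sample of 50 islets, with no treatment named and no age given in the sources used here. Reads of all strains were aligned to the genome of B6. The study compared this with alignment to individualized genomes and reported a small difference on average. Whether reads of the other strains were lost in single regions was not tested here. A strain mean below rests on 2 samples, 1 of each sex, and the spread between them holds both the sex and the preparation.

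Accessible chromatin marks promoters, where transcription starts, and enhancers, which bind transcription factors and can act from a distance. In islets, beta cells secrete insulin and alpha cells secrete glucagon, and their regulatory DNA is bound by endocrine factors such as PDX1, NKX2-2, NEUROD1, RFX6 and FOXA proteins, while AP-1, a dimer of FOS and JUN proteins, binds many enhancers that respond to stimulation and stress. The signal of a region in an inbred strain can differ with the DNA sequence under it, with the number of copies of the segment that the strain carries, and with the state of the cells. A read of a duplicated segment is placed on a copy in the reference genome. The signal there can thus depend on the copies in the strain and on those in the reference, over which reads can be spread.

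Sequences of 6 regions are given first. They hold the widest gaps for CAST, PWK or WSB alone low and for CAST or PWK alone high, and a promoter. Each shows the reference letters under a signal present in all 16 samples and yet uneven. They are RefSeq sequence of GRCm38.p6 (mm10), that is of B6, on the plus strand. Each covers 201 bases around the summit of the sample with the highest signal. The sequence of the other strains was not read. Capitals mark letters of the motifs that were searched, which are spelled out with their shares below. The Spata16 intron (chr3:26969318-26969518) was the region where PWK alone stood highest, and the Palmd intron (chr3:116950125-116950325) the region where PWK alone stood lowest. The site at Gm24923 (chr7:62078650-62078850) had CAST alone lowest and the site at Gm34643 (chr14:103012662-103012862) had WSB alone lowest. The Trio promoter site (chr15:27847484-27847684) had CAST alone highest, and Cdh7 (chr1:109983150-109983350) was the promoter with the largest range among protein-coding genes with an assigned symbol. Wider promoters of predicted genes and the widest gap with WSB alone high are described below by their values alone.
Spata16 intron: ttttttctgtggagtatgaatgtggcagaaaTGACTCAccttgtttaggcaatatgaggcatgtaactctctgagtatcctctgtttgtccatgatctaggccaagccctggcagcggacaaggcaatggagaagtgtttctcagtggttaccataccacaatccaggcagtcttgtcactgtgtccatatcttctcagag
Palmd intron: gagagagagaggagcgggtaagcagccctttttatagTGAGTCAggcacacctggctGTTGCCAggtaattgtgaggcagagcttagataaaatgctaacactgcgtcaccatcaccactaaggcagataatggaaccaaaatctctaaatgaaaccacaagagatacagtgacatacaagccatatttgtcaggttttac
Gm24923 site: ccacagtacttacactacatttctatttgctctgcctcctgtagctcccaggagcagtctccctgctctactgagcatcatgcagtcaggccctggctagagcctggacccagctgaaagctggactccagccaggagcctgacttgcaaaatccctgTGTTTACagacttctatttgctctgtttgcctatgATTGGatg
Gm34643 site: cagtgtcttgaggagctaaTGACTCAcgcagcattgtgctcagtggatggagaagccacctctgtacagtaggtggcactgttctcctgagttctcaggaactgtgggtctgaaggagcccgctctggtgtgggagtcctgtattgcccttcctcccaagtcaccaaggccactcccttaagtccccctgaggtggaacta
Trio promoter site: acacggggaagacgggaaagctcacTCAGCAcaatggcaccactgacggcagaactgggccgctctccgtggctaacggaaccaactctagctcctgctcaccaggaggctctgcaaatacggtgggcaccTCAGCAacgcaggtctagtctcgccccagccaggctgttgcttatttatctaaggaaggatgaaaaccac
Cdh7 promoter: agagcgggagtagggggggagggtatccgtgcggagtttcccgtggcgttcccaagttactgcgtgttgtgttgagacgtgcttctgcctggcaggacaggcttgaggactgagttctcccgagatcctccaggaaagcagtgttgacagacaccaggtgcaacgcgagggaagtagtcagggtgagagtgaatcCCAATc
AP-1 letters were in 3 of these windows (Spata16, Palmd and Gm34643), the Palmd window also held RFX letters, the Gm24923 window FOXA and NFY letters, the Cdh7 window NFY letters and the Trio window MAF letters.

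Over the whole series, the lists held from 77887 (AJ male) to 167051 (WSB female) autosomal peaks, and the median summit signal over the shared regions ran from 32 (PWK male) to 136 (CAST male). The lists give no read totals, and depth by sample was not used here. Values are given below as relative signal, the summit signal divided by the median of the same sample over the 40930 shared regions, so that 1 is a typical shared region of that sample. The centred values had a longer lower tail in some libraries. Their 5th percentile was -1.99 and -1.97 in the CAST female and male and -1.90 in the NZO male, against -1.54 to -1.67 in the other 13 samples. Of the islet endocrine markers, 9 of 11 had a shared region at the start site (all but Sst and Ppy), with a summed relative signal of 18.1 (NZO male) to 24.7 (CAST female). None of 8 acinar, 4 endothelial and 5 leukocyte markers had one, while 2 of 4 duct markers and 1 of 3 mesenchymal markers did, and 0 markers of any list had 1 of the 2539 regions there.

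The strain ranges were wide by construction, and their sizes are a description. The median range over the 2539 regions was 2.37 (quartiles 2.16 and 2.77) against 1.11 over all shared regions, with 419 regions at 3 or more, 66 at 4 or more and 12 at 5 or more. The mean absolute difference between the sexes within strains had a median of 0.37, against 0.35 over all shared regions. The rule capped it at 0.50 in the 2539 regions, while it reached 1.42 over all shared regions, so nothing is read from this comparison. At the lower limit of the range, a region in the Prkar2b gene was just inside with 2.0004 and a region near Ptp4a3 just outside with 1.9999. At the limit on the difference, the Clec4d promoter region was just inside with 0.4999 and a region in Atp6v0e just outside with a value that rounds to 0.50. Their signal was close to that of other shared regions, with a median of -0.16 for the median centred log2 signal over the 16 samples, against -0.04 over all shared regions.

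**Figure D1:**
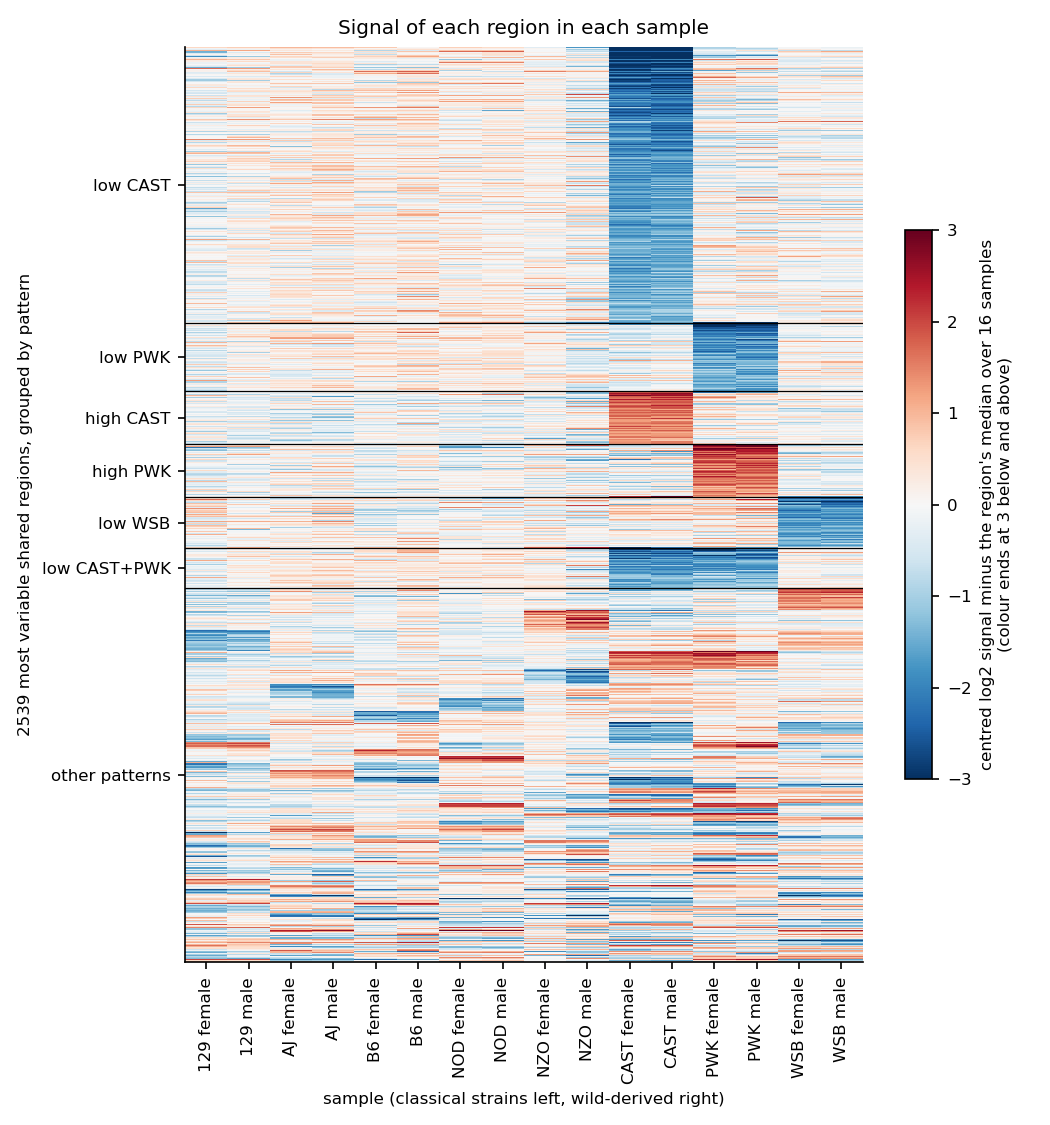
Centred log2 signal of each of the 2539 regions (rows) in each of the 16 samples (columns), minus the median of the region over the samples, with blue for lower and red for higher and the colours ending at 3 below and above. Rows are grouped by which strains lie on the smaller side of the widest gap in the 8 ordered strain means, and the largest block, 766 regions, has CAST alone low in both sexes.

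With all 16 samples, CAST was the strain that most often lay at an extreme. It was lowest in 1112 of the 2539 regions (43.8%, against 20.4% of all shared regions) and highest in 341 (13.4%, against 15% of all shared regions). PWK was highest in 495 (19.5%, against 12.9%), the most of any strain here though not under every alternative below. It was lowest in 325 (12.8%, against 11.2%). WSB was lowest in 318 (12.5%, against 13.1%) and highest in 303 (11.9%, against 9.14%). Among the classical strains, AJ was highest most often, in 394 regions, but at 15.5% this was near its 16.3% of all shared regions. 129 was highest in 115 (4.53%, against 15.7% of all shared regions) and lowest in 214 (8.43%, against 8.46%). Without the 129 male these were 317 and 527, and without the 129 female 174 and 212. Both extremes were classical strains in 218 regions, and the share over all shared regions was not computed.

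The 8 ordered strain means were split at their widest gap to describe which strains stood apart. A single strain lay below the gap in 1300 regions (51.2%, against 30.5% of all shared regions) and a single strain above it in 475 (18.7%, against 20.4%). CAST alone was low in 766 regions (30.2%, against 8.61%), PWK alone in 189 (7.44%, against 3.89%) and WSB alone in 142 (5.59%, against 3.44%). Each classical strain alone was low in 32 (B6, 1.26%, against 2.19%) to 56 (129, 2.21%, against 2.27%). None of the classical strains was above its share over all shared regions there. On the high side CAST stood alone in 147 regions (5.79%, against 4.23%), PWK in 146 (5.75%, against 3.25%) and WSB in 63 (2.48%, against 1.75%). NZO stood alone high in 56 (2.21%, against 2.46%). Each of the other 4 strains did so in 4 (129, 0.158%, against 3.75%) to 20 (B6 and NOD, 0.788%, against 1.13% and 1.32%). The most frequent pair was CAST with PWK, low together in 111 regions (4.37%, against 1.39%) and high together in 52 (2.05%, against 0.875%), among 172 different patterns.

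The count for CAST moved with the scaling. After quantile normalization, which gives all samples one distribution, CAST alone was low in 438 of 2314 regions (18.9%), and with no centring in 57 of 5275 (1.08%). Without centring the direction turned, since CAST, with the high median signals given above, was then highest in 3985 regions and lowest in 112, and PWK was lowest in 3099. Without the NZO female, 4327 regions met the rule and CAST alone was low in 17.1% of them. NZO, then the male alone, was lowest in 1086 and highest in 1112 of these regions, and lay at an extreme more often than CAST, which was lowest in 1311 and highest in 460. PWK was no longer the strain most often highest there (629), nor without the AJ female (AJ 646, PWK 507), without the B6 female (B6 713, PWK 513) or among regions with no other copy (AJ 362, PWK 345). Without the PWK male, PWK was highest in 769 regions in place of 495. The part of the longer lower tail and of the high median signal of the CAST libraries in the CAST count was not tested beyond the scaling alternatives. CAST was at an extreme in 47.5% of the regions after quantile normalization, against 57.2%.

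**Figure D2:**
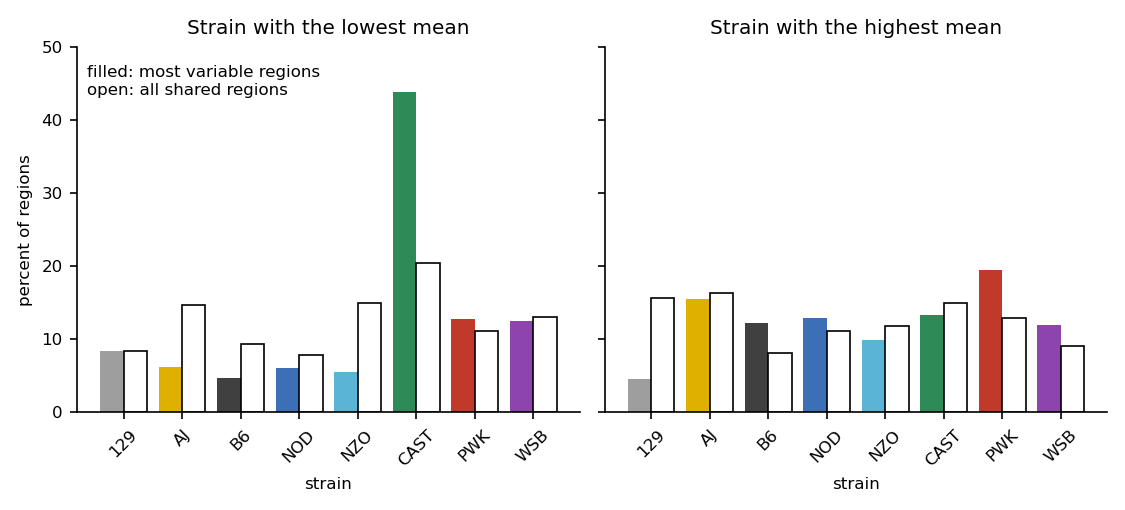
Percent of regions in which each strain had the lowest (left) or the highest (right) of the 8 strain means, for the 2539 most variable regions (filled bars) and for all 40930 shared regions (open bars). CAST is lowest in 43.8% of the filled set and 20.4% of the open set, and PWK is highest in 19.5% and 12.9%.

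Strain means of the wild-derived and the classical strains did not overlap in 301 of the regions. All 3 wild-derived strains lay above all 5 classical strains in 117 regions (4.61%, where 3.33% of all shared regions did so), and below them in 184 (7.25%, where 4.25% did so). The rule used the same strain means, so nothing is read from these shares. The same holds for the strain effect in limma's moderated F test with a sex term, which called 2536 of the 2539 regions at a Benjamini-Hochberg adjusted p under 0.05, with 35.7% of all shared regions called (14610 of 40930). That background count rested on single libraries. It was 7648 without the CAST female, 7875 without the CAST male, 9304 without the WSB male, 9488 without the WSB female, 9737 without the NOD female and 24609 without the NZO female.

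Pairs of strains differed in how often they lay on the same side. AJ and NOD were on the same side of the widest gap in 88.5% of the 2539 regions (79.0% of all shared regions) and had the smallest median absolute difference, 0.36, as they had over all shared regions (0.24). CAST shared a side with any other strain in 39.4% (WSB) to 42.5% (NZO) of the regions, against 48.2% to 59.4% over all shared regions, with median differences of 1.22 (PWK) to 1.46 (AJ), against 0.38 to 0.55. PWK and WSB shared a side in 60.7% (64.9% over all), and pairs of classical strains in 82.6% to 88.5% (56.4% to 79.0%).

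The order of strains was also read in the sex that a choice of range had not used. The other sex was not fully apart, since every region held a peak in all 16 samples. The share with the same order over all shared regions was not computed. When regions were picked in the 8 females alone, by a range of at least 2, there were 5436, and the strain that was highest in females exceeded the strain that was lowest in females also in males in 5218 of them (96.0%), by a median of 1.64 against the 2.37 on which they were picked. Picked in males, there were 7539, and the same order held in females in 91.7%, by a median of 1.22. Within the 2539 regions, whose rule used both sexes, the lowest strain was the same in females and males in 1980 (78.0%, against 35.5% of all shared regions) and the highest in 1515 (59.7%, against 31.0%). The 2 samples of NZO differed most, by a median of 0.44 over the 2539 regions, and those of WSB least, by 0.18.

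The largest range belonged to a duplicated segment of chromosome 14. The region at the promoter of Gm8206, a predicted gene (chr14:6035501-6037795), had a relative signal of 0.159 and 0.146 in the CAST female and male, 14.0 and 17.4 in PWK, and 12.1 and 15.1 in 129. The other 10 samples lay between 1.21 (WSB female) and 4.28 (NOD male). Before scaling, the CAST summit signals were only 16 and 19. CAST and PWK thus stood 6.68 apart on the log2 scale (103-fold, pooled SD between the samples of a strain 0.21, n = 8 strains), and its 301-base window had 41 other copies in the reference genome. The region whose 16 values were most like it, by Pearson's r over the 16 samples (0.991), was at Gm8108 (chr14:4107521-4112115), which had 36 other copies and 63.4-fold between CAST and PWK. The next were a region at the Thoc1 promoter (r = 0.943), where CAST had 1.79 and 1.86 and PWK 7.78 and 7.24, and a region near Gm3696 on chromosome 14 (r = 0.940). Thoc1 encodes a subunit of the complex that exports mRNA, and its window had no other copy. These r are descriptions over 16 samples that share strains in pairs.

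The second and the fifth region by range shared a pattern in which CAST, NZO and PWK were high. At Gm43743 (chr3:94334562-94334692) the relative signal was 32.3 and 42.0 in PWK, 18.9 and 15.3 in CAST, and 8.00 and 10.2 in NZO, while the other 10 samples ran from 0.411 to 1.54. At Gm4076 (chr13:85126553-85127521) it was 1040 and 1336 in PWK, 239 to 284 in CAST and NZO, and 20.6 to 55.9 in the other 10 samples. That window matched the mitochondrial genome, and it was among 4 such windows of the 2539 regions and 8 of all shared regions. In all 4 PWK was highest and WSB lowest, with ranges of 2.91 to 5.72. Copies of mitochondrial DNA in the nuclear genome collect reads of mitochondrial origin when both align, and the share of such reads was not tested here.

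The fourth and the sixth region by range had no other copy in the reference genome. In an intron of Ptprk, a receptor-type tyrosine phosphatase (chr10:28523716-28525448), the relative signal was 7.52 and 7.39 in PWK and 7.15 and 7.83 in WSB. It was 0.150 and 0.102 in CAST and 0.559 to 1.39 in the 5 classical strains. The PWK and WSB samples overlapped each other and lay above all others, and the highest strain stood 60.5-fold over CAST (range 5.92, pooled SD 0.24). In the Spata16 intron, shown above, PWK had 11.2 and 9.33, and the other 14 samples lay between 0.187 and 1.39 with a median of 0.391. Spata16 is known for its part in sperm formation. The gap between PWK and the next strain was 10.4-fold, and the NZO male was the highest of the other samples.

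The Palmd intron had the widest gap of all regions with a single low strain. Palmd encodes palmdelphin, a cytoplasmic protein of the paralemmin family. PWK had a relative signal of 0.222 and 0.212, and the other 14 samples lay between 3.43 and 6.06 (median 4.42), and PWK was 17.7-fold below the nearest other strain. Before scaling, the PWK summit signals were only 13 and 6, against 191 to 565 in the other samples. The Gm24923 site on chromosome 7 gave the same picture for CAST, with 0.449 and 0.650 against 6.02 to 9.82 in the other 14 samples (13.3-fold). At the Gm34643 site WSB had 0.224 and 0.247 against 1.39 to 3.20 (6.88-fold). In each of the 3 regions both sexes of the low strain lay below every other sample, which the way they were picked fixes.

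High signal in a single strain was also found in both sexes. In the Trio promoter region (chr15:27846561-27851917), CAST had 4.62 and 4.88, and the other 14 samples 0.333 to 0.712, an 8.26-fold gap. WSB stood alone at neighbouring regions on chromosome 2. At the promoter of Cwc22, a splicing factor (chr2:77943565-77951852), it had 37.2 and 39.9 against 1.84 to 6.99, and at chr2:78004122-78012719, 38458 bases from the start of 4930440I19Rik, it had 10.4 and 9.52 against 0.536 to 1.11. The copy number of these segments in WSB was not measured here, and their windows had no other copy in the reference genome.

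The classical strains stood alone less widely. AJ alone was low at the promoter of Isoc2b, which encodes a protein with an isochorismatase domain (chr7:4865164-4867013), with 1.91 and 1.38 against 6.24 to 9.80 (4.02-fold). 129 alone was low in an exon of Gm26766 (0.322 and 0.200 against 0.911 to 2.21, 4.77-fold) and alone high near Gm11227 (1.42 and 1.70 against 0.124 to 0.393, 4.03-fold). NOD alone was high in an intron of Mef2c, a transcription factor, with 3.56 and 3.28 against 0.430 to 1.55, and alone low near Gm13660. B6 alone was high in an intron of Ptpro, a receptor-type phosphatase, with 2.71 and 1.60 against a median of 0.508 in the other 14 samples, and alone low near AC116128.1. AJ alone was high near Gm19196, with 1.42 and 1.34 against 0.146 to 0.515. NZO alone was low at Ighv4-2, with 0.476 and 0.214 against 0.847 to 5.34.

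NZO alone was high at the promoter of Trim30a, an interferon-responsive gene of the TRIM family. The NZO male had 4.21 there, but the NZO female only 0.976, against 0.140 to 0.542 in the other samples. The range of 3.83 ran from 2.77 to 4.88 when samples were left out in turn, and the window had 1 other copy in the reference genome.

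Predicted genes such as Gm8206 aside, CAST was the low strain at 4 of the 8 widest promoters of protein-coding genes with an assigned symbol (no Gm number or Rik clone name). At Cdh7, a cadherin of cell adhesion, CAST had 0.159 and 0.212, against 0.714 (NZO male) to 4.80 (AJ female), a range of 4.67 (25.5-fold, pooled SD 0.45). At Rab27a, a GTPase that helps to dock insulin granules at the plasma membrane (chr9:73093833-73096242), CAST had 0.215 and 0.139 and the other 14 samples 1.02 to 3.00, a range of 4.07 (16.8-fold). At Hs3st5, a heparan sulfate sulfotransferase, CAST had 0.421 and 0.496 and AJ 7.17 and 8.16. At St6galnac3, a sialyltransferase, CAST had 0.206 and 0.204, and PWK was highest with 3.86 and 2.94. Before scaling, the CAST summit signals were only 16 and 28 at Cdh7, 22 and 18 at Rab27a and 21 and 27 at St6galnac3.
The other promoters, Cwc22 above among them, had other extremes. PWK was low at S100a3, of the S100 calcium-binding family (0.397 and 0.273 against 1.07 to 6.10). WSB was low at Nat1, an arylamine N-acetyltransferase (0.140 and 0.112 against 0.463 to 2.43). Before scaling, these low summit signals were only 24 and 8 in PWK at S100a3 and 14 and 9 in WSB at Nat1. At Sfi1, which encodes a centrosomal protein, CAST and PWK were high together, with 39.7 to 56.9 against 2.61 to 13.6, in a merged region that also covered Drg1.

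Among genes of islet function, the granule and hormone list held 11 of the 2539 regions among its 133 shared regions (8.27%, against 6.20% of all shared regions), at 3 of its 18 measured genes, Cpe, Pam and Ptprn2. At the promoter of Pam, which amidates peptide hormones, CAST had 0.748 and 0.927 against 1.98 to 6.89. A second region in Pam had 129 lowest, with 0.271 and 0.400. In Cpe, the carboxypeptidase that trims prohormones (chr8:64610675-64612973), CAST and PWK were high together, with 2.08 to 2.63 against 0.393 to 0.787 in the other 12 samples. A second region in Cpe (range 2.17) had WSB alone high. Ptprn2, a phosphatase-like protein of the granule membrane, had 7 of the 11 regions, and the widest of them (range 2.62) had CAST at 0.308 and 0.241 against 0.939 to 2.21. The insulin genes, Iapp and Gcg had no such region at their start sites.

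Endocrine transcription factors had 6 of 68 shared regions among the most variable (8.82%), at 5 of 22 measured genes. St18, a zinc finger factor, had 2 of them. Its intron region was highest in WSB, with 3.75 and 3.71 against 0.542 to 1.76, and its promoter region (range 2.09) had 129 and CAST low. Regions in or near Pdx1 (range 2.34) and Glis3 (2.14) had 129 alone low, that at Rfx6 (2.43) had CAST alone low, and that at Hhex (2.15) had NZO alone low. Exocytosis and ion channel genes had 6 of 165 (3.64%), receptor and second messenger genes 4 of 109 (3.67%), and genes of type 2 diabetes loci 4 of 106 (3.77%). Glucose metabolism genes had 4 of 62 (6.45%), redox and xenobiotic enzymes 3 of 38, and antigen presentation genes 2 of 30. Acinar genes had 0 of 2, and duct, endothelial, leukocyte and mesenchymal genes together 1 of 13, in Tek. These lists are small, and no share among them is read as different from the 6.20% of all shared regions.
In an intron of Rapgef4, which encodes the cAMP sensor EPAC2, the 8 strains fell into 4 high and 4 low ones. 129, B6, NZO and WSB had 2.16 to 2.85, and AJ, CAST, NOD and PWK 0.361 to 0.991. Syt7, a calcium sensor of exocytosis, had a region 31550 bases from its start with CAST high (2.12 and 1.65 against 0.229 to 1.04). At Cacnb3, a calcium channel subunit, WSB was low (0.308 and 0.303), and the region lay in an exon of the neighbouring gene Ddx23. In Ryr2, the calcium release channel, NOD was low, with 0.575 and 0.373 against 0.589 to 2.63. Near Adcy9, an adenylyl cyclase, CAST was low with 0.224 and 0.182, and in Gldc, of the glycine cleavage system, 129 was low with 0.610 and 0.986.
Antigen presentation genes were split differently. At H2-D1, a class I histocompatibility gene, CAST was high (15.8 and 13.9 against 1.85 to 10.6, the highest of the others being the NZO male). At H2-T23, whose window had 1 other copy, the AJ, NOD and PWK samples had 0.161 to 0.455 and the other 10 samples 0.610 to 1.55. In Tek, an endothelial receptor, CAST had 0.542 and 0.657 against 1.90 to 6.58, and no endothelial marker had a shared region at its start site.

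On centred signal, the most variable regions lay at promoters less often than all shared regions did. With no centring the direction turned, at 49.3% of the 5275 regions that then met the rule. Of the 2539 regions on centred signal, 718 lay within 3 kb of a start site (28.3%, against 41.0% of all shared regions). Of the others, 824 lay in introns (32.5%, against 27.1%), 825 between genes (32.5%, against 26.9%) and 172 in exons (6.77%, against 5.07%). Read the other way, 4.28% of shared promoter regions were among the most variable, and 7.43% to 8.29% of the other classes. Their promoters were also poor in CpG, with a median of 5 CpG in the 301 bases around the summit against 15 over all shared promoter regions, and a median GC content of 49.5% against 57.8%. In introns and between genes the median GC content was 46.5%, against 45.8%. The summits of the 16 samples were spread over a median of 128 bases, against 93.

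Duplicated sequence was frequent among them. In 296 of the 2539 regions (11.7%, against 2.44% of all shared regions) the 301-base window had at least 1 other copy in the reference genome, defined as a match over 80% of its length at 90% identity. The share of shared regions that were among the most variable was 5.62% with no other copy (2243 of 39933), 17.9% with 1 to 4 and 45.6% with 5 or more (193 of 423). PWK was the highest strain in 63.7% of the regions with 5 or more copies and in 15.2% of those with none. CAST alone was low in 32.0% of the regions with no copy and in 19.7% of those with 5 or more. For these 2 patterns, shares by copies over all shared regions were not computed. Regions with copies also lay side by side and are not independent. In the largest group, on chromosome 8, PWK was highest in 55 of 76 regions, 74 of them with other copies. More than 50% of the window was repeat-masked in 5.32%, against 2.11% of all shared regions. How many copies each strain carries was not measured.

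**Figure D3:**
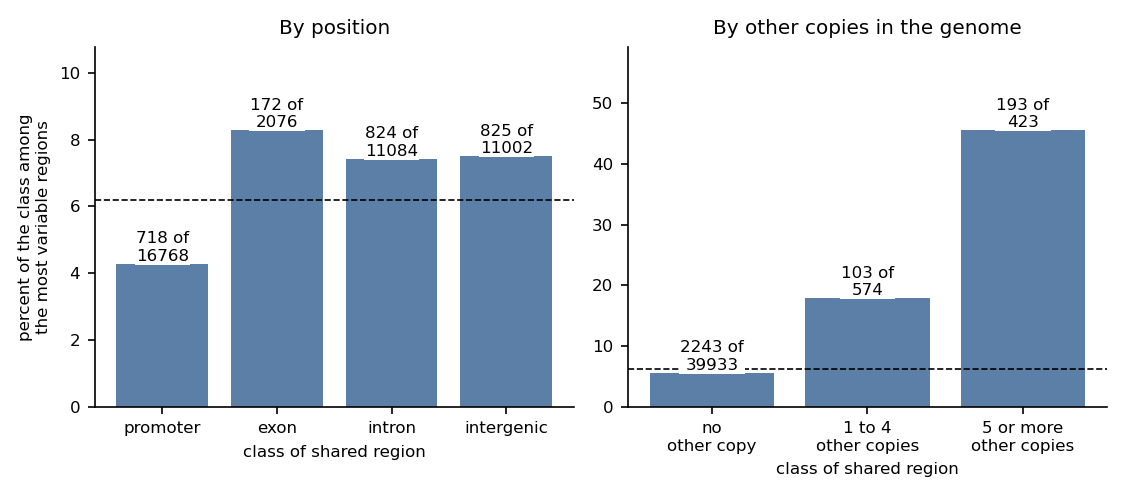
Percent of shared regions that were among the 2539 most variable, by position (left) and by the number of other copies of the 301-base window in the reference genome (right), with the number of most variable and of all shared regions above each bar and the overall 6.20% as a dashed line. The share is 4.28% at promoters and 45.6% where the window has 5 or more other copies.

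Along the chromosomes, regions within 250 kb of each other formed 1590 groups, of which 1112 were single regions and 52 held 5 or more (417 regions in all). The largest group, on chromosome 8 (chr8:19679468-20833446), held 76 of its 104 shared regions, 74 of them with other copies. PWK was highest in 55 and WSB lowest in 67 of these, with median strain means of 0.46 in PWK and -2.39 in WSB, and the protein-coding genes there were 4930467E23Rik, Gm15319, Gm21119 and Gm31371. On chromosome 14, the group at Gm8206 (chr14:5959261-7660453) held 19 of 20 shared regions, and PWK was highest in 14 and CAST lowest in 11. On chromosome 2 (chr2:176706000-178291435), 18 of 23 shared regions were members of a group at zinc finger genes, Zfp970, Zfp972 and Zfp973 among them, and NOD was highest in 13. The single-copy part of the genome had groups too. Examples were 10 of 49 shared regions in a 1.13 Mb stretch of chromosome 3 with Unc5c, Bmpr1b and Pdlim5, and 8 of 35 in one of chromosome 9 with Fat3, neither with any other copy. By chromosome, from 3.66% (chromosome 11) to 10.5% (chromosome 19) of the shared regions were among the most variable.

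The letters of transcription factor motifs were counted in the same 301-base windows on both strands, around the median summit of the 16 samples and not that of the highest sample as in the sequences above. The motifs were AP-1 (TGANTCA), CRE (TGACGTCA), ETS (CCGGAAG), SP/KLF (GGGCGG), the CTCF core (CCNNNAGGG), RFX (GTTGCCA), FOXA (TGTTTAC), NKX2-2 (CACTTNA), PDX1 (TAATTA), NEUROD1 (CAGATGG), MAF (TGCTGA), the factors of the GATA family (with AGATAAG as letters), NRF1 (TGCGCA), HNF1 (GTTAAT), NFY (CCAAT) and an E-box (CACGTG), and the MAF letters can overlap the AP-1 letters. A match describes the letters of the B6 reference alone, which other strains may not share, and not a bound site. GC-rich promoter letters were less frequent in the most variable regions. GGGCGG was in 11.3% of their windows against 23.1% over all shared regions, and at promoters in 22.0% against 46.8%. CCGGAAG was in 2.52% against 5.83%. Away from promoters the same motifs were near their level in all shared regions (7.03% against 6.70% and 1.54% against 1.61%). PDX1 letters were in 8.82% against 8.69% of all windows, in 9.23% against 11.5% away from promoters and in 7.80% against 4.71% at them.

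The share with AP-1 letters differed with the strain that was extreme, a count chosen after the values were seen. They were in 507 of the 2539 windows (20.0%, against 15.3% of all shared regions), and away from promoters in 21.7% against 19.1%. Where WSB was the highest strain they were in 143 windows (47.2%, against 43.9% of all shared regions with WSB highest), and where NZO was highest in 88 (35.1%, against 18.3%), but where 129 was highest in 7 (6.09%, against 4.84%). Where 129 was the lowest strain they were in 105 windows (49.1%, against 47.0%), and where NOD was lowest in 50 (32.5%, against 23.6%). With NZO lowest they were in 8.63% (against 10.5%) and with WSB lowest in 11.3% (against 6.10%). CAST, which was lowest most often, had 17.4% (against 15.4%). For WSB highest and for 129 at either end the shares were thus near those of all shared regions.
By sample, the median centred signal of the 507 regions with AP-1 letters was 0.31 and 0.29 in the WSB female and male, and -0.16 and -0.19 in their regions without. In 129 it was -0.67 and -0.64 with the letters and -0.17 and -0.08 without. Over all shared regions the WSB medians were 0.28 and 0.31 with the letters and -0.04 and -0.05 without. Those of 129 were -0.42 and -0.32 with and 0.09 and 0.08 without, so the contrast was not particular to the most variable regions. Its size moved when all shared regions away from promoters were read alone. There the 129 medians were -0.56 and -0.46 with and -0.36 and -0.25 without, a smaller contrast. Those of WSB were 0.21 and 0.22 with and -0.33 and -0.39 without, a larger one. Among the 507 regions, the sexes of AJ and B6 did not go together, at -0.02 and -0.38 in the AJ female and male and at -0.32 and 0.07 in B6. WSB and 129 thus lay at opposite ends in both sexes, while the sexes of AJ and of B6 differed.

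**Figure D4:**
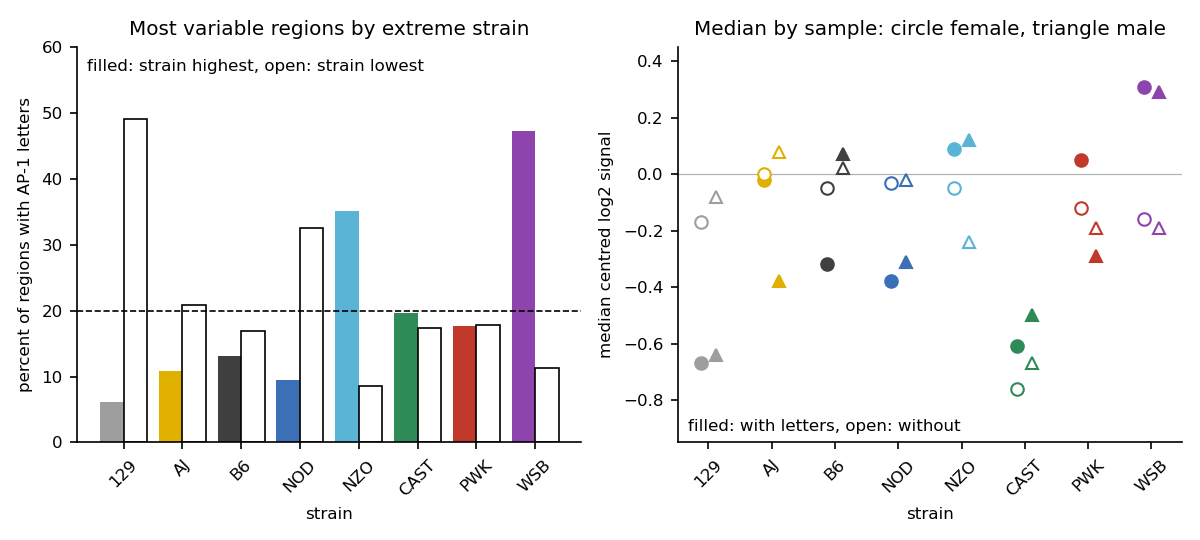
Left, percent of the most variable regions with the AP-1 letters TGANTCA in the window, by the strain that was highest (filled) or lowest (open), with the 20.0% of all 2539 regions dashed. Right, median centred log2 signal in each sample over the regions with (filled) and without (open) the letters, which is highest with the letters in both WSB samples (0.31 and 0.29) and lowest in both 129 samples (-0.67 and -0.64).

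The groups with a single extreme strain also differed in the reference sequence and annotation under them. WSB alone was low in 142 regions, 40.8% with another copy in the genome and 38.0% at promoters, and alone high in 63, of which 1.59% had another copy and 42.9% held AP-1 letters. That last share was near the 43.9% of all shared regions with WSB highest, alone or not. PWK alone was high in 146 regions, 28.1% with another copy, and alone low in 189, 1.06% with another copy. For CAST the shares with another copy were 6.27% of the 766 regions where it was alone low and 8.84% of the 147 where it was alone high. The same shares over all shared regions with these patterns were not computed. Neighbours in a duplicated segment count separately here. In the chromosome 8 group above, WSB was lowest in 67 of 76 regions, 74 of them with other copies.

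The strain lists of the authors, made by an irreproducible discovery rate analysis of both sexes of each strain, gave a further readout. Such an analysis scores the repeatability of peak ranks in a pair of samples, and its outcome depends on the signal that chose the regions. In 729 of the 2539 regions (28.7%, against 49.5% of all shared regions) all 8 strains listed the region. The strain with the lowest mean listed it in 37.4% (against 60.2%) and the strain with the highest in 98.6% (against 93.9%). A peak was thus called in each single sample of these regions, and the strain list left out the lowest strain in most of them.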

How the data were processed

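ATAC-seq of pancreatic islets was measured in 16 samples, a female and a male of each of 8 strains. Per the methods of the study and the submitters' processing notes, adapters were trimmed with cutadapt 2.0, read pairs were aligned to mm10 with Bowtie2 2.3.4.1, unmapped, mitochondrial and duplicate reads were removed with SAMtools and Picard 2.9.2, and MOSAiCS was run by the authors on each sample (false discovery rate 0.05). Whether reads were moved to the transposase cut site is not given in the sources used here. The deposited signal of a peak is a whole number at its summit, not scaled to depth, and a deposited mean signal served as an alternative. The deposited significance is a −log10 p-value, and the strain lists, made by the authors with an irreproducible discovery rate (IDR), carry that rate on a −log10 scale. They were limited here to a rate of 0.05 and the weakest 10% of their peaks by signal was left out, as in the study. No other column of values was present.

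Peaks on chromosomes 1 to 19 were joined where they overlapped by at least 1 base. Centring sets the median shared region of each sample to the same value. A fold change is on the log2(signal + 1) scale and is understated where the signal is low. Annotation was GENCODE M21 on GRCm38, the assembly of mm10, and copies were sought with minimap2 2.31. The strain effect was fitted with limma 3.58.1 in R 4.3.3 on strain and sex, with Benjamini-Hochberg adjustment over the 40930 shared regions, and was tested on simulated data first. The sources do not say how many animals a sample pooled, so adjusted p-values measure the spread between these samples.

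The members, gene lists and tests were chosen with earlier results of these data known. Regions were named by a rule: the 6 largest ranges, for each strain the widest gap alone high and alone low, the 8 promoters with the largest range among protein-coding genes with an assigned symbol (no Gm number or Rik clone name), up to 15 regions by range at genes of the lists, the 3 largest groups, the regions at each threshold, and the 3 most like the largest range. Regions outside it (Pdx1, Rfx6, Glis3, Hhex, the St18 promoter, the second Cpe region, the groups with no copies and the mitochondrial matches) and the AP-1 counts by strain were chosen after their values were seen. Alternatives covered scaling, pseudocount, the measure of signal, merging, filters, thresholds and leaving out each sample.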

Additional observations from a re-analysis of the deposited data

How the results depend on the processing

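The counts moved with the scaling, the measure of signal and the thresholds, and that of the strain effect also with single samples. The cause was not tested. With no centring, 5275 regions met the rule, 49.3% at promoters (above the 41.0% of all shared regions, so that the direction turned), with CAST at an extreme in 4097, classes apart in 101, CAST alone low in 57, PWK highest in 32 and a strain effect in 25884. With the deposited mean signal these were 676, 26.5%, 349, 87, 153 and 123, with the strain effect within 1.5 times. A call in at least 12 samples gave 4180, 26.2%, 2260 and 502. A range of at least 1.5 gave 7009, with 3476, 824, 1503 and 1188, and one of at least 2.5 gave 1017, 31.1%, 596, 125, 324 and 253. A difference of at most 0.3 gave 670, 34.9%, 381, 84, 209 and 123, and no limit on it gave 25.6% at promoters. Promoter shares were 30.9% without the weakest 25% of peaks, 22.7% with exactly 1 peak in each sample (PWK highest in 301), and 24.9% for regions with no other copy, an alternative chosen after seeing the data, as were the counts of CAST alone low and PWK highest. Quantile normalization gave 438 with CAST alone low.

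Leaving out each sample gave from 2307 to 4327 regions, promoter shares from 27.2 to 30.9%, CAST at an extreme in 1300 to 1771, classes apart in 269 to 405, CAST alone low in 691 to 831, PWK highest in 442 to 769, and a strain effect in 7648 to 24609. These counts moved in 9 of 112 values with a sample left out and in 40 of 116 under the other alternatives. The deposited mean signal lowered the range of most named regions. Where a sample is left out, the lone sample of that strain is assumed to vary like the others. The sex term is the only pairing across strains, and the strain effect was called in 14610 regions with it and in 16128 without it. The labels give no replicate numbers. With 2 samples a strain and signal in place of counts, differences near the limits of the rule were not resolved.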
